A study of Mus musculus with 12 samples.

Results

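The genes described here are 40 genes of DNA replication and S phase, grouped by what they do. The list is not defined by a measured value, but it was drawn up with results of these data known. The list was matched by gene symbol in the tables of both cell types, and all 40 genes were found among the 30165 genes of the OPC table and the 17918 genes of the neuron table. OPCs are oligodendrocyte precursor cells, the dividing glial cells that give rise to myelinating oligodendrocytes. RNA was sequenced from cells of the mouse cortex that had been isolated with magnetic beads, with 3 ctl and 3 dKO libraries for each cell type, every library being a pool of 2 mice. The dKO mice carried the tamoxifen-inducible NG2-CreERT2 and floxed alleles of Cav1.2 and Cav1.3 (Cacna1c and Cacna1d), which encode pore subunits of L-type calcium channels. Recombination was therefore directed at NG2-expressing cells, OPCs and pericytes among them. The ctl mice are labelled WT, and whether they carried Cre or floxed alleles is not given in the sources used here. Tamoxifen was given on consecutive days at the end of the first postnatal week, and the age of the mice at cell isolation for these libraries is not given in the sources used here.

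Before a cell copies its DNA, the 6 MCM proteins are loaded on origins as an inactive helicase ring by the origin recognition complex with Cdc6 and Cdt1, with geminin (Gmnn) restraining Cdt1. Cdc45 and the GINS proteins turn the ring into the active helicase, polymerases extend from primers laid down by primase, and the sliding clamp PCNA holds them on the template. Supply of deoxynucleotides, packaging of the new DNA and protection of stalled forks run alongside. Most of these genes are transcribed from late G1 into S phase under E2F factors, and postmitotic neurons keep them low.

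Total counts ranged from 14935963 to 19812274 in the OPC libraries and from 15052892 to 16344601 in the neuron libraries. The members took 5307 to 6640 reads per OPC library and 19138 to 28586 estimated reads per neuron library. In the OPC libraries 15 of the 40 members had a mean under 50 reads, against 0 in the neuron libraries, so the OPC values carry more counting error. The labels were set against cell type markers, in the deposited units that scale for transcript length and depth, FPKM for OPCs and TPM for neurons. In the OPC libraries, 10 oligodendrocyte markers summed to between 8954 and 15670 FPKM and 10 OPC markers to between 375.9 and 758.9 FPKM, with Pdgfra at 4.29 to 18.4 FPKM. The 8 ependymal and choroid plexus markers summed to between 8359 and 18830 FPKM there, of which Ttr made up 8082 to 18360 FPKM. In the neuron libraries, 10 neuron markers summed to between 467.4 and 857.5 TPM and 12 neuroblast and neural progenitor markers to between 602.2 and 1427 TPM, with Rbfox3, which encodes NeuN, at 2.77 to 7.73 TPM. The same libraries held 6426 to 16400 TPM of 10 endothelial markers, 12450 to 67590 TPM of 8 ependymal and choroid plexus markers and 52840 to 269900 TPM of 6 red blood cell genes. No marker was at 0 in every library of either table. The libraries are therefore called the OPC fraction and the neuron fraction below. In such bulk samples, fewer cells of a type and less RNA per cell cannot be told apart. Counts are given below as normalized counts, scaled to a common library size. Of the targeted genes, Cacna1c had 373, 411 and 439 in ctl and 252, 337 and 312 in dKO of the OPC fraction (adjusted p = 0.349, edgeR). Cacna1d had 251, 191 and 255 against 92.8, 153 and 232 (adjusted p = 0.531, edgeR). Whether counts outside the deleted exons remain cannot be told from gene totals.

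Because E2F factors are the known regulators of this group, the promoters of the members were searched for their site. RefSeq promoter windows (GRCm38.p6, from 250 bases before the start of a gene to 50 after it) were matched for 32 of the 40 members. The E2F site was searched on both strands as TTTCCCGC, TTTGGCGC, TTTCGCGC or TTTGCCGC, forms that can overlap each other. At least 1 match lay in a window of 12 of the 32 members (37.5%), of 20 of 50 other replication genes and of 704 of 27025 genes (2.6%). The 12 members were Mcm3, Mcm5, Mcm6, Mcm7, Cdc6, Cdt1, Gins3, Pola1, Pold1, Rfc3, Lig1 and Uhrf1. In 8 of these a match lay before the start, and the stretches below give 60 bases around it, 5′ to 3′ on the strand of the gene, with the E2F site in capitals. They are shown for comparison of the site and its flanks. The other 20 matched members held no such letters in their windows.
Mcm5, chr8:75109332-75109391, plus strand: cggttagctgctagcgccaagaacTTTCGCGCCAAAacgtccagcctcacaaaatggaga
Mcm6, chr1:128359780-128359839, minus strand: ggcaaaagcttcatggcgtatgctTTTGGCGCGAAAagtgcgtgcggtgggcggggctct
Mcm7, chr5:138172015-138172074, minus strand: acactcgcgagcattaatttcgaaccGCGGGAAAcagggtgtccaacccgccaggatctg
Cdc6, chr11:98907987-98908046, plus strand: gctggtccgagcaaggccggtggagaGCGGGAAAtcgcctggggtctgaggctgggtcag
Gins3, chr8:95633492-95633551, plus strand: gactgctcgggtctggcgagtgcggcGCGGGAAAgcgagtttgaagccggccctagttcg
Pola1, chrX:93632260-93632319, minus strand: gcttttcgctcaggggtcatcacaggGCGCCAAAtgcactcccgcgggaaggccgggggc
Uhrf1, chr17:56304102-56304161, plus strand: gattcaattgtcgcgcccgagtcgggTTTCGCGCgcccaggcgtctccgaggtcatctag
Rfc3, chr5:151651209-151651268, minus strand: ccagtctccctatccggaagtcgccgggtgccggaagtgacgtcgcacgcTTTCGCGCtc

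In Mcm5 and Mcm6, which both encode subunits of the MCM ring, 2 overlapping E2F matches formed a run of 12 bases, and the run of Mcm5 (TTTCGCGCCAAA) is the reverse complement of that of Mcm6 (TTTGGCGCGAAA). They began 153 and 110 bases upstream of the start. In Mcm7, Cdc6 and Gins3 the same 8 bases, GCGGGAAA, stood in the stretch. Other motifs were spread differently over the lists. The CHR element of genes of late cell cycle, searched as TTTGAA or TTCGAA on both strands, lay in windows of 6 of 32 members (18.8%), 13 of 50 other replication genes (26.0%), 14 of 18 mitosis genes (77.8%) and 21.7% of all genes. An E2F site lay in windows of 1 of the 18 mitosis genes (5.56%). A CCAAT box, searched on both strands, lay in windows of 18 of 32 members (56.2%), 31 of 50 other replication genes (62.0%), 16 of 18 mitosis genes (88.9%) and 41.1% of all genes. A match is a run of letters and not a shown binding site, and genes with several starts have several windows.

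**Figure D1:**
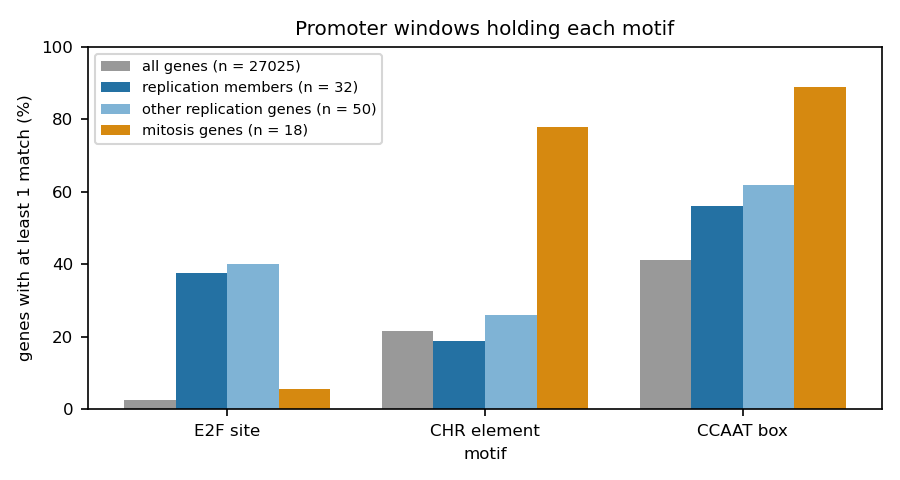
Share of genes (%, y axis) with at least 1 match to each motif (x axis) in their promoter windows, for all genes, the replication members, the other replication genes and the mitosis genes. The E2F bar of the replication members stands at 37.5%, against 2.6% of all genes, whereas the CHR bar is highest in the mitosis genes, at 77.8%.

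Levels per length were compared within each fraction. In ctl of the neuron fraction, Pcna was the highest member, with 199 ± 12.8 TPM (SD, n = 3), followed by Slbp, which binds the histone mRNA stem-loop, with 104 ± 5.36 TPM. Mcm6 (87.8 ± 11.5 TPM) and Rrm2, the regulated subunit of ribonucleotide reductase (80.8 ± 13.3 TPM), came next and did not differ beyond their spread. Pole, the catalytic subunit of the leading-strand polymerase, was lowest with 2.09 ± 0.288 TPM. Within the other groups of members, the highest were Gmnn (39.8 ± 7.33 TPM) for helicase loading, Gins1 (20.7 ± 5.87 TPM) for helicase activation and Ccne2 (7.34 ± 1.16 TPM) for G1/S control.

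In ctl of the OPC fraction Pcna also led, with 24.7 ± 2.57 FPKM (SD, n = 3). Mcm4 followed with 7.85 ± 1.17 FPKM and Mcm7 with 4.61 ± 0.126 FPKM. The highest members of the other groups were Gmnn (1.81 ± 0.351 FPKM), Gins3 (1.11 ± 0.178 FPKM), Dut (3.78 ± 0.279 FPKM), Slbp (2.23 ± 0.286 FPKM) and Ccne2 (1.12 ± 0.0295 FPKM), with E2f1 at 1.11 ± 0.272 FPKM beside the last. Exo1, a nuclease of replication and repair, was lowest with 0.0533 ± 0.0305 FPKM and did not pass the filter of a mean normalized count of at least 10. Summed over the members, the CPM (counts scaled to library size with TMM factors) were 332.4 to 361.6 in ctl and 333.4 to 357.7 in dKO of the OPC fraction, and 1245 to 1623 in ctl and 1733 to 1739 in dKO of the neuron fraction. The tables were counted in different ways, so these levels are given side by side and were not tested between the fractions.

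Replication genes were on the higher side in dKO across the neuron fraction. Of the 40 members, 39 had a log2 fold change above 0, against 51.1% of the 14352 genes tested, and their median was 0.439 against 0.007 for all genes tested. The 3 dKO libraries lay within 1733 to 1739 summed CPM and above every ctl library. In the deposited TPM, without TMM factors, the sums were 1089 to 1205 in ctl and 1201 to 1519 in dKO, and the groups overlapped. In edgeR's quasi-likelihood test none of the members passed an adjusted p of 0.05, nor did any of the genes tested (0%). At an unadjusted p under 0.05, 12 members were higher and 0 were lower, which is 30.0% of the members, against 4.96% of all genes tested for higher and 4.04% for lower. The dKO libraries lay above all ctl libraries for 18 members and below them for 0, against 7.5% and 7.82% of all genes tested. The smallest p that an exact permutation test of a single gene allows at this sample size is 0.1. These p-values measure the spread between pools of 2 mice.

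**Figure D2:**
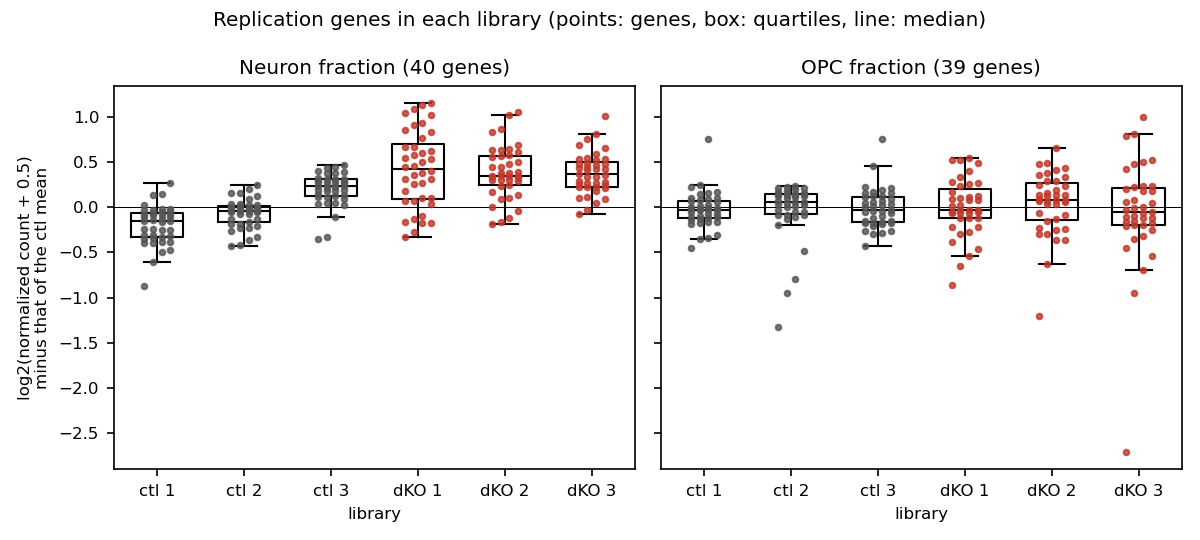
Members in each library (x axis) as log2(normalized count + 0.5) minus that of the ctl mean (y axis), with points for genes and boxes for quartiles and median, ctl in grey and dKO in red. In the neuron fraction ctl replicate 3 sits above the other ctl libraries and near the dKO libraries, and in the OPC fraction the 6 boxes all span 0.

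The count at this threshold depended on single libraries. Ctl replicate 3 held the highest ctl value for 35 of the 40 members and ctl replicate 1 the lowest for 27. Without ctl replicate 1 there were 6 members at an unadjusted p under 0.05, without ctl replicate 2 there were 5, and without ctl replicate 3 there were 19. Without dKO replicate 1, 2 or 3 there were 11, 9 or 8. These counts include members that were not among the 12. Of the 12 themselves, 6, 5 and 11 were under 0.05 without ctl replicate 1, 2 and 3, and 8, 9 and 8 without dKO replicate 1, 2 and 3. Over all genes tested, 473 of 14319, 611 of 14358 and 567 of 14384 were higher at that threshold without ctl replicate 1, 2 and 3. Without dKO replicate 1, 2 and 3 they were 563 of 14289, 861 of 14335 and 611 of 14360, against 712 of 14352 with every library. In each of these fits the members at that threshold were all higher, the number above 0 stayed between 37 and 40, and the median between 0.314 and 0.538. Of the 12 members, Mms22l, Dut, Cdc45, Rfc4 and Rrm2 kept an unadjusted p under 0.05 whichever library was left out. Chaf1a, Fen1, Prim1, Rfc3 and Tk1 were above 0.05 only in some of the fits without a library, and E2f1 and Tyms in other alternatives too.

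Fork protection held the member with the largest difference. Mms22l, which acts with Tonsl to protect and restart stalled forks, had 145, 162 and 138 normalized counts in ctl and 330, 301 and 300 in dKO of the neuron fraction. The groups stood far apart relative to their spread, and the log2 fold change was 1.06 ± 0.19 (SE), a 2.09-fold difference. Its unadjusted p was 0.000463 and its adjusted p 0.521 in edgeR. In DESeq2, run as an alternative, Mms22l was the 1 member past the threshold, with an adjusted p of 0.00263, among the 0.613% of genes called. The log2 fold change lay between 1.01 and 1.13 with any library left out, with unadjusted p-values up to 0.00226. The deposited position of Mms22l is chromosome 4, 24496451 to 24602950, plus strand. Its estimated counts were split over 6 RefSeq transcripts, each at 0 in at least 1 library, so the sum over the gene is given. Tonsl, its partner, had a log2 fold change of 0.18 ± 0.31 and overlapping groups.

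Most other members of this group package new chromatin or keep its marks. Chaf1a, the large subunit of the histone chaperone CAF-1, had 135, 151 and 246 normalized counts in ctl and 235, 325 and 281 in dKO. The lowest dKO library lay below the highest ctl library, and the log2 fold change was 0.66 ± 0.28 (unadjusted p = 0.0429 and adjusted p = 0.546, edgeR). Slbp had 1583, 1705 and 1696 normalized counts in ctl and 1987, 1763 and 1934 in dKO, a log2 fold change of 0.19 ± 0.12 with groups that did not overlap. Chaf1b, Uhrf1, which maintains DNA methylation, and the nuclease Exo1 had log2 fold changes from 0.23 to 0.43, each with overlapping groups.

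In the nucleotide supply group 4 of 5 members were at an unadjusted p under 0.05. Dut, the dUTPase that keeps uracil out of DNA, had 494, 523 and 579 normalized counts in ctl and 908, 677 and 800 in dKO. The log2 fold change was 0.58 ± 0.16 (unadjusted p = 0.00577, edgeR), and all dKO libraries were above all ctl libraries. Of the 2 RefSeq transcripts of Dut, NM_001159646 had 279, 303 and 271 against 336, 392.4 and 423, without overlap, and NM_023595 had 215, 221 and 307 against 572, 285 and 376, with overlap. Rrm2 had 1166, 1548 and 1839 normalized counts in ctl and 2215, 2368 and 2135 in dKO, a log2 fold change of 0.56 ± 0.18 (unadjusted p = 0.0126, edgeR). Its ctl libraries were spread more widely than its dKO libraries, and the groups did not overlap. Tk1, the thymidine kinase of the salvage route, had 104, 86.6 and 68.6 normalized counts in ctl and 189, 139 and 125 in dKO. Its log2 fold change of 0.81 ± 0.30 was the largest of this group (unadjusted p = 0.026, edgeR). Unlike most members, Tk1 was lowest in ctl replicate 3. Tyms, which makes thymidylate, had 465, 514 and 567 normalized counts in ctl and 705, 648 and 615 in dKO, a log2 fold change of 0.35 ± 0.15 (unadjusted p = 0.0424, edgeR). The groups of Tyms did not overlap, but its p was under 0.05 in only 4 of 12 alternatives. It was above 0.05 with DESeq2 (0.0502), without a filter on low counts, with a replicate block, and without any 1 library other than ctl replicate 3. Rrm1, the large subunit of ribonucleotide reductase, had a log2 fold change of 0.31 ± 0.18 and overlapping groups.

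Among the polymerases, the clamp and the ligase, all 11 members had a log2 fold change above 0, from 0.09 for Pola1 to 0.53 for Pole, and 4 were at an unadjusted p under 0.05. Rfc4 and Rfc3 are subunits of the clamp loader. Rfc4 had 369, 376 and 418 normalized counts in ctl and 615, 487 and 565 in dKO, a log2 fold change of 0.52 ± 0.16 (unadjusted p = 0.00982, edgeR). Rfc3 had 399, 432 and 502 against 685, 607 and 562, a log2 fold change of 0.48 ± 0.16 (unadjusted p = 0.0159, edgeR). Neither had groups that overlapped. Fen1, the nuclease that trims Okazaki fragments, had 358, 427 and 480 against 596, 548 and 565, a log2 fold change of 0.43 ± 0.16 (unadjusted p = 0.0252, edgeR) without overlap. Prim1, the catalytic primase subunit, had 444, 529 and 669 against 829, 668 and 792, a log2 fold change of 0.48 ± 0.18 (unadjusted p = 0.0297, edgeR). For Prim1 dKO replicate 2 and ctl replicate 3 stood at nearly the same count.

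The remaining members of this group showed smaller or less even differences. Lig1, which seals Okazaki fragments, had 349, 238 and 369 normalized counts in ctl and 476, 393 and 442 in dKO, a log2 fold change of 0.46 ± 0.20 (unadjusted p = 0.0548, edgeR). Pcna had 1994, 1853 and 2025 against 2554, 2107 and 2115, a log2 fold change of 0.21 ± 0.14. Pold1, the catalytic subunit of the lagging-strand polymerase, had 303, 307 and 315 against 323, 393 and 329, a log2 fold change of 0.18 ± 0.17. These 3 genes had groups that did not overlap, and their unadjusted p-values were over 0.05. Pola1, Pola2, Pole and Rpa2 had overlapping groups.

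In helicase loading and activation, 8 of 8 members had a log2 fold change above 0. Cdc45 had 191, 195 and 204 normalized counts in ctl and 407, 306 and 274 in dKO, a log2 fold change of 0.74 ± 0.21 (unadjusted p = 0.00681, edgeR). The ctl libraries of Cdc45 lay close together, and every dKO library was above them. Gins2, a subunit of the GINS complex, had 35.6, 55.4 and 57.9 against 95, 69.1 and 83.9, a log2 fold change of 0.74 ± 0.36 (unadjusted p = 0.0736, edgeR) without overlap. Mcm10, which helps open the origin, had 52.8, 112 and 128 against 174, 204 and 114, a log2 fold change of 0.75 ± 0.39 with overlap. Gins1 had 110, 166 and 227 against 341, 206 and 180, a log2 fold change of 0.53 ± 0.34, and Gins3 had one of 0.03 ± 0.24, both with overlap. Of the loaders, Cdc6 had 126, 105 and 193 normalized counts in ctl and 225, 217 and 203 in dKO, a log2 fold change of 0.61 ± 0.28 (unadjusted p = 0.0567, edgeR). Cdt1 had 108, 109 and 76.1 against 183, 138 and 130, a log2 fold change of 0.62 ± 0.29 (unadjusted p = 0.059, edgeR). The groups overlapped for neither loader. Gmnn, the inhibitor of Cdt1, had 305, 239 and 383 against 384, 367 and 399, a log2 fold change of 0.31 ± 0.20 with overlap.

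The MCM subunits, which are made in excess of the rings in use, had the lowest median log2 fold change of the role groups, 0.197, and 0 of 6 members at an unadjusted p under 0.05. Mcm6, the highest of them, had 2176, 2058 and 2893 normalized counts in ctl and 2108, 2602 and 2319 in dKO, and its log2 fold change of -0.02 ± 0.17 was the only value below 0 among the 40 members. It was 0.03 with library totals alone as the scaling, where all 40 members were above 0. Mcm7 had 976, 1372 and 1516 against 1760, 1587 and 1549, a log2 fold change of 0.34 ± 0.18 (unadjusted p = 0.0908, edgeR) with groups that did not overlap. Mcm5 had 452, 459 and 699 against 778, 681 and 730, a log2 fold change of 0.44 ± 0.20 (unadjusted p = 0.0511, edgeR), with 1 ctl library inside the dKO range. In Mcm2, Mcm3 and Mcm4 the log2 fold changes were 0.25, 0.14 and 0.06, with overlapping groups.

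For G1/S control, E2f1, the transcription factor whose family gives the E2F site its name, had 117, 150 and 173 normalized counts in ctl and 266, 217 and 179 in dKO. The log2 fold change was 0.59 ± 0.26 (unadjusted p = 0.049, edgeR), and the closest libraries of the 2 groups, 173 and 179, nearly met. Its p was under 0.05 in 6 of 12 alternatives. It was above 0.05 with DESeq2 size factors (0.0507) or a replicate block (0.0897) in edgeR, and without ctl replicate 1 or 2 or dKO replicate 1 or 2. The cyclins Ccne1 and Ccne2, partners of Cdk2 at the entry to S phase, had log2 fold changes of 0.49 ± 0.36 and 0.45 ± 0.24 with overlapping groups. Ccne2 had 151, 186 and 237 normalized counts in ctl and 218, 297 and 267 in dKO. Ccne1 was high in dKO replicate 1 alone, at 196 normalized counts against 84.3 and 108 in the other dKO libraries and 88.4 to 97.5 in ctl. Set beside the promoters shown above, 1 of the 12 members with an E2F site (Rfc3) and 11 of the 20 matched members without one were at an unadjusted p under 0.05. Their median log2 fold changes were 0.38 and 0.48, and the difference was not tested.

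**Figure D3:**
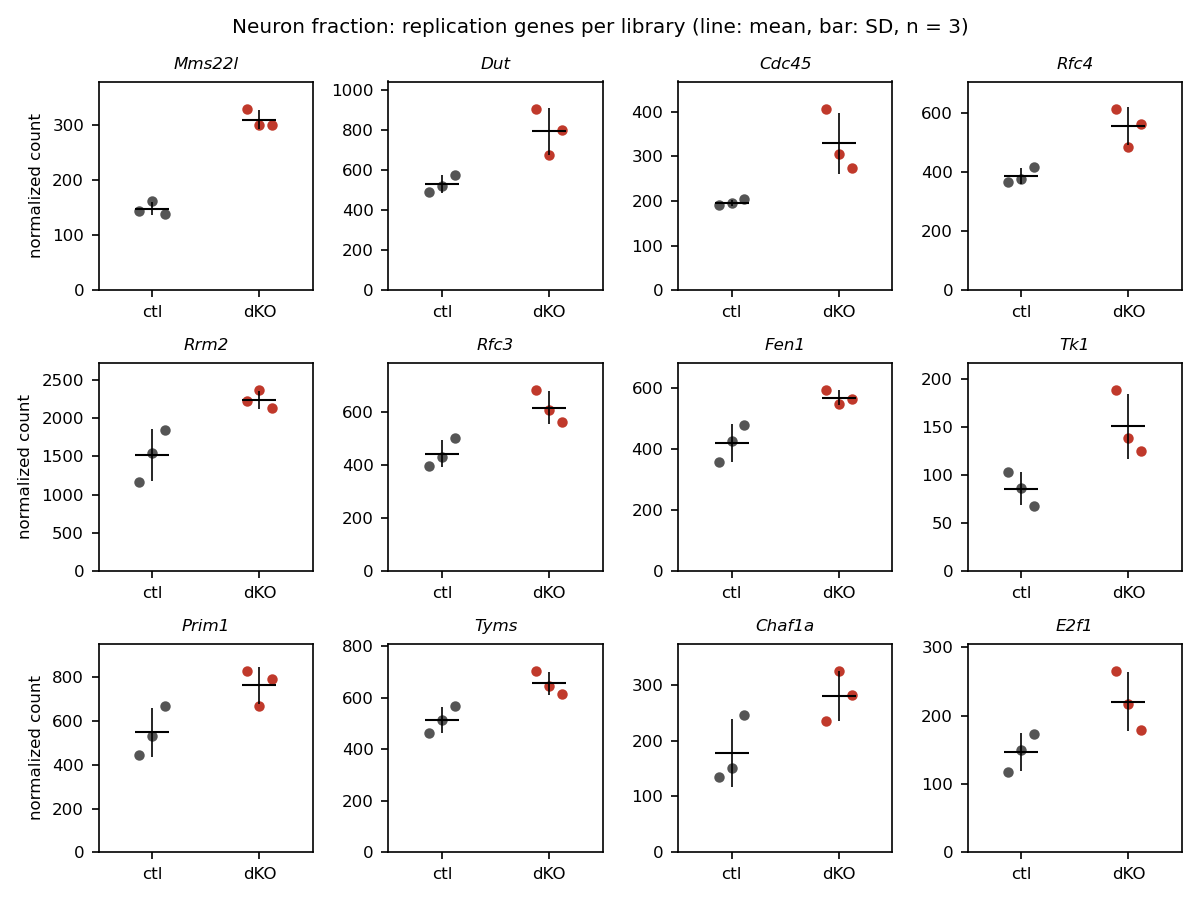
Normalized counts (y axis, from 0) of the 12 members at an unadjusted p under 0.05 in the neuron fraction, with 1 point per library, the mean as a line and the SD as a bar (n = 3 per group), ctl in grey and dKO in red. The groups are apart for 10 genes and overlap for Prim1 and Chaf1a.

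Other gene lists of the cell cycle were counted in the same way in the neuron fraction, and none of their genes passed an adjusted p of 0.05 in edgeR. Of all genes tested, 51.1% had a log2 fold change above 0. At an unadjusted p under 0.05, 4.96% of all genes tested were higher and 4.04% lower. The groups did not overlap for 7.5% with dKO higher and for 7.82% with dKO lower. Of 60 other replication genes, 44 had a log2 fold change above 0, with a median of 0.189, and 6 were higher and 0 lower at an unadjusted p under 0.05. The dKO libraries lay above all ctl libraries for 8 of the 60 and below them for 3, which were Orc4, Pold4 and Rfc1. The smallest p-values were those of Pclaf, a PCNA-binding protein, with 595, 619 and 780 normalized counts against 1250, 895 and 1101, of Hells, a chromatin remodeller (504, 428 and 521 against 698, 661 and 679), and of the S-phase and mitotic cyclin Ccna2 (916, 1120 and 1308 against 1712, 1692 and 1429). All 3 had groups that did not overlap and an adjusted p of 0.521 in edgeR. Of 20 mitosis genes, 20 had a log2 fold change above 0, with a median of 0.484, 11 were higher at an unadjusted p under 0.05, and the groups did not overlap for 8, all with dKO higher. The mitotic kinases Aurka (236, 252 and 359 against 573, 479 and 530) and Plk1 (230, 263 and 316 against 473, 407 and 459) and the survivin gene Birc5 (332, 330 and 513 against 597, 622 and 611) had the smallest p-values, all without overlap and with an adjusted p of 0.521 in edgeR. In DESeq2 Aurka had an adjusted p of 0.0319.

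Markers of other cells also differed between these libraries. For comparison, 4.96% of all genes tested were higher and 4.04% lower at an unadjusted p under 0.05. The 12 neuroblast and neural progenitor markers summed to 1159, 1965 and 1879 CPM in ctl and 2558, 2605 and 1843 in dKO. Of the 12, 10 had a log2 fold change above 0, 5 of them at an unadjusted p under 0.05, and the median was 0.524. The 10 neuron markers summed to 572.6, 767.4 and 783.9 against 1359, 893.7 and 768.7. Of these, 8 of 10 were above 0, with a median of 0.528 and 1 higher at that threshold. The 10 endothelial markers summed to 15290 to 17860 in ctl and 7645 to 14030 in dKO, with 10 of 10 below 0. The red blood cell genes ranged from 11100 to 49200 in ctl and from 17400 to 73230 in dKO, and the ependymal and choroid plexus markers from 5064 to 9529 and from 8773 to 31150. Of the 7 ependymal and choroid plexus markers tested, 5 were higher and 1 lower at an unadjusted p under 0.05, and the median was 0.992 on the log2 scale. The 10 astrocyte markers summed to 481.9 to 1202 in ctl and 370.3 to 680 in dKO, with 8 of 10 below 0, a median of -0.403, and 3 lower and 1 higher at that threshold. The summed microglia markers ranged from 394.9 to 1767 and from 371.4 to 987.6, with 10 of 10 below 0 and a median of -0.672. The summed oligodendrocyte markers ranged from 782.7 to 4125 and from 1190 to 1987, with 10 of 10 below 0, a median of -0.908 and 1 at an unadjusted p under 0.05. The summed OPC markers ranged from 162.3 to 231.6 and from 212.1 to 255. Of the 10, 7 were below 0, with a median of -0.569 and 1 lower at that threshold. Markers of committed oligodendrocyte precursors ranged from 135 to 269.6 and from 126 to 171.3 in sum. Of the 8, 6 were below 0, with a median of -0.735 and 2 lower at that threshold. Refitted without the red blood cell genes, an alternative chosen after seeing the data, the median of the members was 0.433 and 12 were at an unadjusted p under 0.05. That refit takes the red blood cell genes out of the scaling and the test, and leaves the cells in the libraries unchanged. It therefore cannot show what these cells contributed. The part of red blood cells or of the other cell types in the result was not tested.

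**Figure D4:**
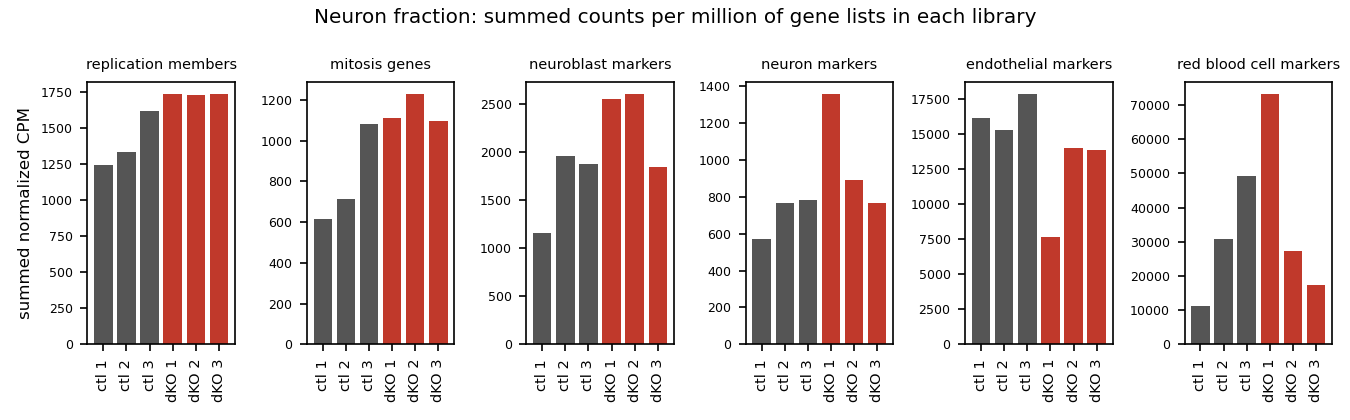
Summed scaled CPM (y axis, from 0, a scale per panel) of 6 gene lists in each library of the neuron fraction (x axis), ctl in grey and dKO in red. The replication and mitosis sums of every dKO library are above those of every ctl library, the endothelial sums are below, and the red blood cell sums are uneven within both groups.

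In the OPC fraction, which holds cells targeted by the Cre line, replication genes fell on both sides of 0. Of the 39 members tested, 19 had a log2 fold change above 0 and 20 below it, against 50.8% above 0 of the 17364 genes tested, and the median was -0.011 against 0.005. None of the members passed an adjusted p of 0.05 in edgeR or in DESeq2, while 0.00576% of all genes did in edgeR and 1.69% in DESeq2. At an unadjusted p under 0.05, 1 member was higher and 0 were lower, against 6.27% and 5.27% of all genes tested. The dKO libraries lay above all ctl libraries for 5 members and below them for 0, against 7.41% and 9.55% of all genes tested.

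The 1 member under 0.05 was Mcm5, with 69.1, 77.4 and 64.8 normalized counts in ctl and 92.8, 112 and 98.4 in dKO. Every dKO library was above every ctl library, and the log2 fold change was 0.52 ± 0.21 (unadjusted p = 0.0397 and adjusted p = 0.413, edgeR). The p did not stay under 0.05 with a replicate block, without ctl replicate 1 or 3 or without dKO replicate 2 or 3. The deposited position of Mcm5 is chromosome 8, 75836197 to 75855067, plus strand. Fen1, with 21, 29.8 and 30.3 against 39.1, 35.4 and 54.6, had the largest log2 fold change, 0.67 ± 0.33 (unadjusted p = 0.0762, edgeR). Its reads are few, and it overlaps Tmem258 and Gm10143 on the opposite strand. Rfc3 had 69.1, 76.2 and 61.6 against 101, 84.4 and 78.1, a log2 fold change of 0.35 ± 0.23. Tyms had 35.9, 35.7 and 37.6 against 41.1, 41.7 and 63.1, a log2 fold change of 0.41 ± 0.30. Cdt1 had 39.4, 32.2 and 34.5 against 43, 45.4 and 40.7, a log2 fold change of 0.28 ± 0.28. For Fen1, Rfc3, Tyms and Cdt1 the groups did not overlap in either fraction, all with dKO higher. These were 4 of the 39 members tested in both fractions, against 0.582% of the 13401 gene symbols tested in both.

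The highest members of the OPC fraction had overlapping groups. Pcna had 933, 1053 and 1138 normalized counts in ctl and 1019, 847 and 905 in dKO, a log2 fold change of -0.17 ± 0.12. Mcm4 had 479, 431 and 578 against 505, 510 and 485, a log2 fold change of 0.01 ± 0.13. Dut had 152, 155 and 173 against 162, 216 and 142 (0.12 ± 0.20), and Slbp had 236, 269 and 211 against 260, 260 and 247 (0.10 ± 0.15). Among the highest of their roles, Gmnn had 36.8, 50 and 53.3 against 45, 29.9 and 37.4 (-0.31 ± 0.31), Gins3 had 63, 50 and 46 against 76.2, 22.7 and 49.2 (-0.11 ± 0.42), and Ccne2 had 67.4, 69.1 and 70 against 63.5, 70.8 and 35.3 (-0.28 ± 0.30). The values of Mcm4, Dut and Gins3 changed sign with some library left out. Mms22l, the leading member in the neuron fraction, had 50.8, 48.8 and 41.8 normalized counts against 55.7, 55.4 and 28.9 in the OPC fraction, a log2 fold change of -0.01 ± 0.33. By group, the log2 fold changes ran from -0.18 to 0.52 in the MCM helicase, -0.31 to 0.31 in helicase loading and -0.16 to 0.05 in helicase activation. They ran from -0.20 to 0.67 in the polymerases, clamp and ligase, -0.33 to 0.49 in nucleotide supply, -0.07 to 0.27 in chromatin and fork protection and -0.36 to 0.04 in G1/S control. Standard errors reached 0.65 for Ccne1, whose normalized count was 2.14 in dKO replicate 3.

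Of the other replication genes, 57 of 60 passed the filter in the OPC fraction, with 33 above 0, a median of 0.024 and 0 at an unadjusted p under 0.05. Over all genes tested in this fraction, 6.27% were higher and 5.27% lower at that threshold. The smallest p-values were those of Ccna2 (39.4, 36.9 and 21.9 against 42, 59.9 and 58.8), Rfc2 (775, 935 and 810 against 759, 721 and 670) and Recql4 (60.4, 89.3 and 47 against 37.1, 45.4 and 48.1). Of the mitosis genes 16 of 20 passed the filter, 12 of them above 0, with a median of 0.113. Top2a, the topoisomerase of mitotic chromosomes, had 21.9, 36.9 and 42.8 normalized counts in ctl and 47.9, 77.1 and 81.3 in dKO, and was the 1 mitosis gene at an unadjusted p under 0.05 (0.0189, adjusted p = 0.351, edgeR). Bub1b and Cdc20 followed with log2 fold changes of 0.78 ± 0.39 and 0.43 ± 0.27. Microglia markers were higher in dKO of this fraction, summing to 249 to 299.1 CPM in ctl and 322.9 to 1008 in dKO, with 10 of 10 at an unadjusted p under 0.05. None of the 10 passed an adjusted p of 0.05 in edgeR (smallest 0.246), and 8 did in DESeq2. The summed astrocyte markers ranged from 1412 to 2301 in ctl and from 2276 to 5784 in dKO, with 10 of 10 above 0, a median of 0.929 and 7 at an unadjusted p under 0.05. Of these markers 0 passed an adjusted p of 0.05 in edgeR (smallest 0.246) and 4 did in DESeq2. The summed OPC markers ranged from 1424 to 2236 and from 1277 to 2368, with 7 of 10 above 0, a median of 0.58 and 1 higher at an unadjusted p under 0.05. The summed oligodendrocyte markers ranged from 67100 to 79100 and from 49480 to 85810, with 8 of 10 below 0, a median of -0.424 and 2 lower at that threshold. No marker of either list passed an adjusted p of 0.05 in edgeR or DESeq2. Their part in the values of the members was not tested.

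**Figure D5:**
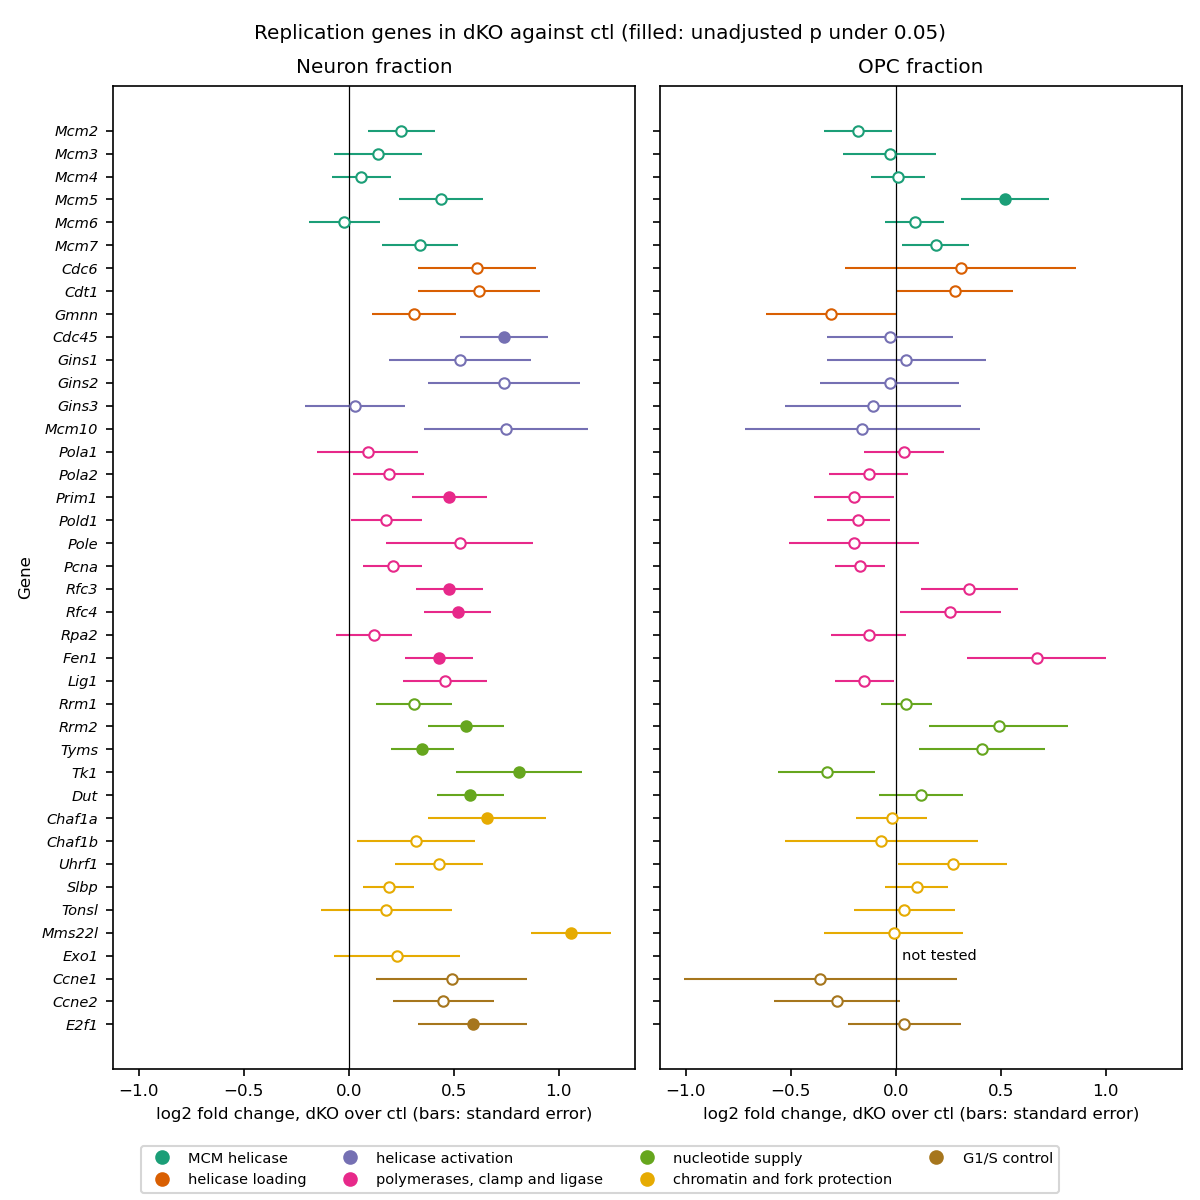
Log2 fold change of dKO over ctl (x axis, bars are standard errors) for each of the 40 members (y axis, coloured by role) in the neuron and the OPC fraction, with filled points for an unadjusted p under 0.05. In the neuron fraction 39 points lie right of 0 and 12 are filled, and in the OPC fraction 19 lie right of 0, 20 left, Mcm5 is filled and Exo1 was not tested.

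Set side by side, 20 members were above 0 in the neuron fraction and below 0 in the OPC fraction, 18 were above 0 in both, and 0 were at an unadjusted p under 0.05 in both. The difference between the fractions was not tested. In the OPC table, 10 members overlapped another gene with a mean of at least 10 reads, over whole gene spans with introns. Tonsl shared its strand with the neighbour Vps28. Among the members under 0.05 in the neuron fraction these were Cdc45 (with Ufd1), Rfc4 (Eif4a2), Tk1 (Afmid), Chaf1a (Ubxn6) and Fen1, each with its neighbour on the opposite strand. The strand setting of the counting is not given in the sources used here, so reads in any shared exons could belong to either gene. Whether exons of these pairs overlap was not examined, and the neuron counts were estimated per transcript.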

How the data were processed

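The OPC table that the authors deposited holds gene counts, made per the methods with HISAT2 and featureCounts, and FPKM values beside them. In the neuron table, estimated counts and TPM values were deposited for each RefSeq transcript, and how these were made is not given in the sources used here. Signal columns the authors deposited (their normalized counts) and their fold changes and p-values were not used. The methods name GRCm38 and the submitters' processing notes name mm39. The deposited positions are not those of GRCm38 and are given as deposited. Estimated counts were added up over the transcripts of a gene and then rounded.

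Groups followed the labels. Within each table, dKO was compared with ctl by the quasi-likelihood test of edgeR 4.0.16 (R 4.3.3) on a genotype term alone, over genes whose mean normalized count (TMM) reached 10. Adjusted p-values are Benjamini-Hochberg over all genes tested, with a threshold of 0.05. The SE of a log2 fold change is its size over the root of the F statistic. DESeq2 1.42.0, other scalings, no filter, a replicate block and each library left out were alternatives. Normalized counts are counts scaled by TMM factors to the mean library. Scripts were tested on simulated data.

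The members and lists were chosen with earlier results of these data known. Values per library are given for members at an unadjusted p under 0.05 or with groups that do not overlap, and for the highest member per length of each role, and for up to 3 other genes per list with the smallest p. Other members were given by range, and those given per library beyond the rule (Mcm5, Mcm10 and Ccne1 in neurons, Mms22l in OPCs) were chosen after their values were seen. Depth limits counting precision, and intervals were not computed from it.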

Additional observations from a re-analysis of the deposited data

How the results depend on the processing

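The count of neuron members at an unadjusted p under 0.05 was 12, with 13 in DESeq2, 11 with DESeq2 size factors in edgeR, 17 with library totals only, 12 without a filter and 13 with the replicate block, and between 5 and 19 with a library left out. The 13 with the replicate block held 10 of the 12, without E2f1 (unadjusted p of 0.0897, edgeR) and Tyms (0.0654). The median stayed between 0.314 and 0.538. Library totals only gave 922 higher and 435 lower genes in neurons at that threshold, against 712 and 580. Genes past the adjusted p numbered 0 in neurons, 88 with DESeq2 and 0 whichever library was left out. In OPCs they numbered 1, with 293 in DESeq2, 87 without a filter, 27 with the replicate block and 1 to 199 with a library left out, the most without dKO replicate 2. OPC members at an unadjusted p under 0.05 numbered 1, with 0 under the replicate block and 0 to 1 with a library left out, and their median ranged from -0.016 to 0.042 when a library was left out. The causes were not tested. Of the 40 neuron members 6 changed sign in at least 1 alternative (Mcm3, Mcm4, Mcm6, Gins3, Pola1 and Tonsl), and of the 39 OPC members 18 did. With a library left out, Mcm6 in neurons ran from -0.11 to 0.15, and in OPCs Dut ran from -0.07 to 0.23, Gins3 from -0.57 to 0.24 and Mcm4 from -0.08 to 0.13. With library totals only, Mcm6 in neurons was 0.03 and Mcm4 in OPCs -0.0013. Of 288 fits of the 24 neuron members named by the rule, 244 kept their sign and side of the threshold, 30 moved above 0.05, 11 below it and 3 changed sign. Whether the same replicate numbers pair the libraries is not given in the sources used here, and the correlations of so few libraries cannot decide it. Deviations from the group means of equally numbered libraries correlated at -0.13, 0.18 and 0.15 in OPCs and 0.17, -0.05 and -0.06 in neurons, and not every library correlated best with its own number. With 3 pools per group and few reads for many members in OPCs, differences larger than the standard errors given could still be missed. Gins2 in neurons, for example, had a log2 fold change of 0.74 ± 0.36 and an unadjusted p of 0.0736 (edgeR).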
